A study of Mus musculus with 8 samples.

Results

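The GATA factors Gata1 to Gata6 and their FOG cofactors Zfpm1 and Zfpm2 were followed in whole mouse pancreas. The 8 genes were chosen by symbol, and each matched 1 of the 36432 gene IDs in the expression tables. Poly(A) RNA had been sequenced from pancreases of mice aged 6 to 8 weeks on a mixed strain background. The 4 tested mice carried Ptf1a-Cre +/KI with Gata6 lox/lox, and the 4 controls carried Ptf1a-Cre +/KI with no floxed allele listed. All 8 mice thus had a Cre recombinase gene inserted at 1 Ptf1a allele. Ptf1a is active in pancreatic progenitors and acinar cells, so cells outside that lineage, such as vessels, fat and immune cells, keep Gata6 in this model. The labels do not say which part of Gata6 is floxed, and Gata6 RNA did not check the deletion, as described below. The libraries of the first group are therefore called labelled libraries 1 to 4. The comparison asks what happens to the GATA and FOG genes of the adult pancreas when Gata6 has been targeted there.

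GATA factors are transcription factors that bind the DNA letters GATA through zinc fingers. GATA1, GATA2 and GATA3 are known for blood, endothelial and T cells, whereas GATA4, GATA5 and GATA6 are known for heart, gut and other endodermal organs. In the pancreas GATA4 and GATA6 act together in progenitors, and both are found in adult acinar cells, the cells that make digestive enzymes. The FOG proteins do not read DNA in the same way: they bind a GATA zinc finger and bring in corepressors or coactivators.

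The second of the 2 zinc fingers, the main DNA contact of a GATA factor, shows how alike the family members are and whether their reads could be confused. It was found by its spacing, in which 2 residues stand within each cysteine pair and 17 between the pairs. The coding stretch of 75 bases, from GENCODE M21 transcripts, is given 5′ to 3′ for Gata1 to Gata5, with capitals where all 5 genes have the same base.
Gata1: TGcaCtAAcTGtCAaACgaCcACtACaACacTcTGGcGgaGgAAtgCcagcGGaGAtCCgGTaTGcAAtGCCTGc
Gata2: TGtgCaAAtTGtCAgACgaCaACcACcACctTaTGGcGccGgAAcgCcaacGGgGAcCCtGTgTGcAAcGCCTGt
Gata3: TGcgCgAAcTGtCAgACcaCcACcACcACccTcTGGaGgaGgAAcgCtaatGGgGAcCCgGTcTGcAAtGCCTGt
Gata4: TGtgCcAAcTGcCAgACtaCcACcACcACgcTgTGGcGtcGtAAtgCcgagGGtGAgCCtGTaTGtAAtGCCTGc
Gata5: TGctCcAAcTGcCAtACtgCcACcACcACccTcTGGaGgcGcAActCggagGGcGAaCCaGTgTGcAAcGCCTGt
The same base stood in all 5 genes at 44 of the 75 positions. Between pairs of the 6 GATA genes, 51 to 61 of the 75 bases were identical, the most between Gata4 and Gata6. Over whole transcripts the longest exact run shared by 2 GATA genes, in the same orientation, was 14 to 26 bases. For Gata4 and Gata6 that run was 18 bases, and for Zfpm1 and Zfpm2 it was 20 bases. The family resemblance was thus spread over short runs at the level of RNA.

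Levels are given as rescaled FPKM, the deposited FPKM (fragments per kilobase of transcript) divided by 100000 in every library. No common library total underlies the deposited numbers, and division by a constant does not give them one. Each value has an interval that Cufflinks gave, and the interval width implies a number of fragments behind the value. Summed over genes, implied fragments came to 4811619 to 7420118 in the labelled libraries and to 6016821 to 7299502 in the controls. Libraries with titles starting BKD (labelled 1, 3 and 4 and control 1) expressed the Y-linked gene Eif2s3y at 5.34 to 13.7, whereas those starting ASK (controls 2 to 4) or BSH (labelled 2) had Xist at 17.3 to 31.99. Title prefix and sex were therefore confounded with each other and partly with genotype. A list of 18 acinar markers, which checks the tissue, was present in every library but at very different levels. It summed to 5012, 247643, 53295 and 346926 in labelled libraries 1 to 4, and to 454744 to 632826 in the controls. Labelled libraries 1 and 3 thus stood apart, and results that rest on them are also given without them.

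Gata4 and Gata6 were the GATA factors with the highest mean levels, and Zfpm1 was the more abundant FOG gene. Gata6 rose in the labelled libraries, Gata4 and Zfpm1 had lower values that did not pass the test, and the other 5 genes had low levels. Of the low genes, Gata1 and Gata3 had intervals that reached 0 in all libraries. The test was limma on log2(rescaled FPKM + 1) for genes whose average across all libraries reached 1, and 3 of the 8 members met that minimum. Of the 8 members 1 passed at a Benjamini-Hochberg adjusted p under 0.05, where 0.414% of the 11832 genes tested did (0.22% higher and 0.194% lower). The labelled libraries and the controls did not overlap in 2 members, Gata6 and Zfpm1, where 18.5% of all genes tested did not overlap (10.9% higher, as Gata6, and 7.61% lower, as Zfpm1). With no minimum on expression, 0 of the 5 remaining members had groups apart, against 12.4% of 25098 genes, and 0 of 5 reached an unadjusted p under 0.05, against 20.6%. The labels do not say whether mice of a group share litters or handling, so the p-values measure the spread between these libraries.

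**Figure D1:**
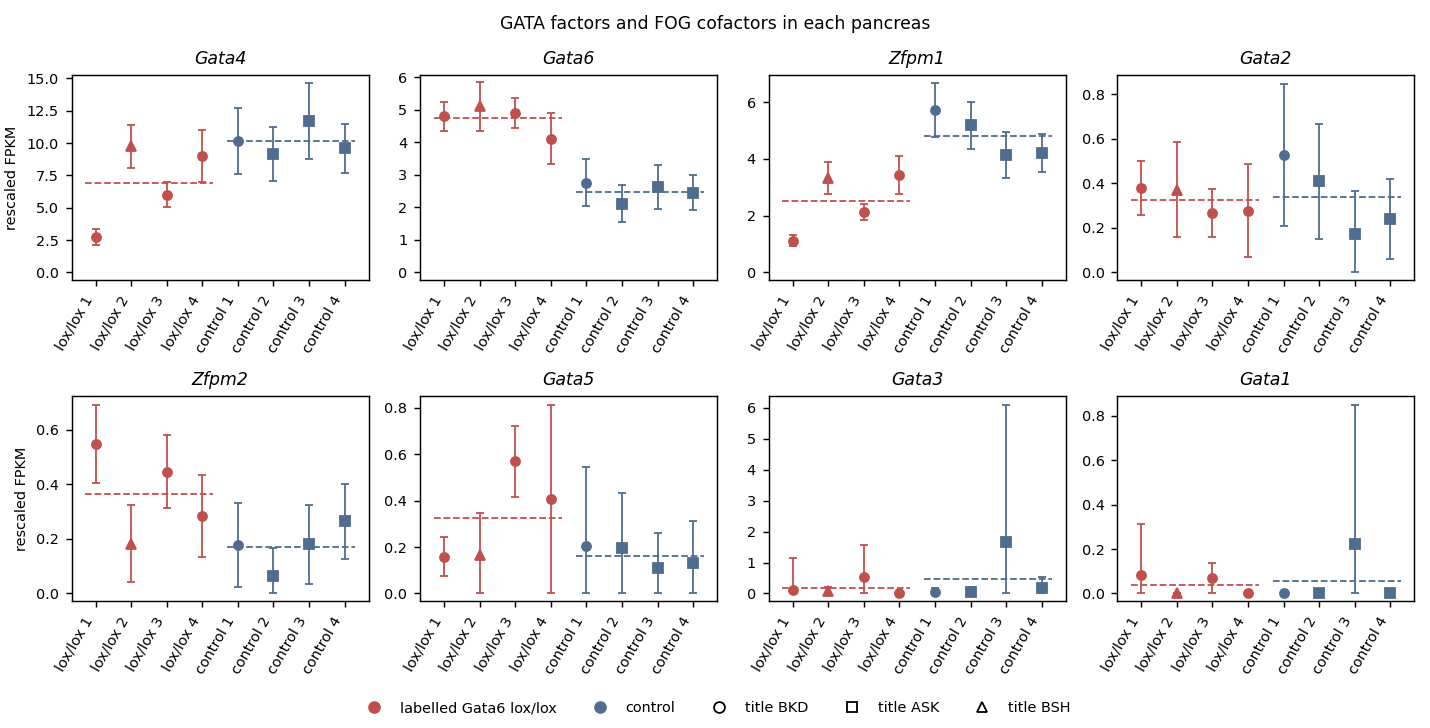
Rescaled FPKM (y axis) of each GATA and FOG gene in labelled libraries 1 to 4 and controls 1 to 4 (x axis), with the interval deposited by the authors as bars, the group mean as a dashed line and the title prefix as the symbol. All 4 labelled libraries lie above all controls for Gata6 and below all controls for Zfpm1, while Gata4 is low in labelled libraries 1 and 3.

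Gata6 (ENSMUSG00000005836) lies at chr18:11052508-11085633 on mm9. Its level was 4.81, 5.12, 4.90 and 4.12 rescaled FPKM in labelled libraries 1 to 4, against 2.76, 2.12, 2.62 and 2.45 in controls 1 to 4. Every labelled library was above every control, so the gene that the genotype targets was higher, not lower, and its RNA did not check the label. The mean was 4.74 ± 0.43 in the labelled libraries and 2.49 ± 0.28 in the controls (SD, n = 4 each). The log2 fold change was 0.72 (SE 0.11, adjusted p = 0.0442 in limma). The exact permutation p, two-sided, was 0.0286, the smallest that 4 against 4 libraries allow. A gene-level FPKM adds up all annotated exons, so it does not resolve a floxed part.

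The depth behind these values describes counting within a library and not the spread between mice. Between 114 and 460.6 implied fragments stood behind a Gata6 value in the labelled libraries, against 55.0 to 82.0 in the controls. In 7 of 8 libraries that number was whole within 0.02. The lowest interval bound in the labelled libraries, 3.35 in library 4, reached below the highest upper bound in the controls, 3.48 in control 1. Library 4 was thus the only labelled library whose interval met one of the controls. Within a library, Gata6 ranked 4218th to 5170th of the 11832 genes tested in the labelled libraries and 6479th to 7658th in the controls, so the groups were apart on ranks as well.

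The Gata6 call was lost when any control, or labelled library 1, 2 or 3, was left out. Its adjusted p in limma was 0.0850, 0.180, 0.150 and 0.113 without controls 1 to 4 in turn. It was 0.112, 0.0536 and 0.132 without labelled library 1, 2 or 3. Without library 4 it was 0.0299, in a fit where 2577 of 11867 genes tested passed. The title sets hold 3 labelled libraries against 1 control (BKD) and 1 labelled library against 3 controls (ASK and BSH), so each fit of 1 set, for any member, assumes that its lone library varies like the other group, and a lost call there says little. The log2 fold change of Gata6 was 0.57 when BKD titles were fitted alone (adjusted p = 0.637) and 0.85 for ASK and BSH titles alone (adjusted p = 0.277). A prefix term in the fit of all 8 libraries left 0.71 (adjusted p = 0.198).

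A noncoding transcript at the start of Gata6 had other values. The annotated locus of 1010001N08Rik (ENSMUSG00000087274, chr18:11049085-11052565 on mm9) overlaps that of Gata6 by 58 bases. It stood at 0.609, 2.03, 0.796 and 0.874 rescaled FPKM in labelled libraries 1 to 4, against 1.504, 1.90, 1.97 and 1.05 in controls 1 to 4. Its groups overlapped, and its log2 fold change of -0.36 had an adjusted p of 0.312 in limma. The strand of the reads is not given in the sources used here, so fragments within those 58 bases cannot be assigned to either gene.

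Gata4 (ENSMUSG00000021944, chr14:63817759-63890529 on mm9) encodes the GATA factor closest to GATA6 in pancreatic function. Its level was 2.75, 9.75, 6.02 and 9.02 rescaled FPKM in labelled libraries 1 to 4, against 10.2, 9.16, 11.7 and 9.59 in controls 1 to 4. Labelled libraries 1 and 3 were below every control, library 2 lay within the controls and library 4 was just under them. The mean was 6.88 ± 3.19 in the labelled libraries and 10.2 ± 1.13 in the controls (SD, n = 4 each). The log2 fold change of -0.61 (SE 0.32) did not pass in limma (adjusted p = 0.217), and the exact two-sided permutation p was 0.114. Without labelled libraries 1 and 3 it was -0.10 (adjusted p = 0.794). Among BKD titles it was -0.80 (adjusted p = 0.638) and among ASK and BSH titles -0.047 (adjusted p = 0.919). In whole tissue, fewer cells of a type and less RNA per cell cannot be told apart.

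The acinar list moved with Gata4 across the labelled libraries. Its 17 tested members had a median log2 difference from the control mean of -7.00, -1.16, -3.28 and -0.72 in labelled libraries 1 to 4. The controls lay at -0.32 to 0.25. The 2 libraries with the lowest acinar medians also had the lowest Gata4 and Zfpm1, whereas Gata6 was about as high there as in library 2. No acinar marker was at 0 in all libraries, none of the 17 passed the test, and their part in the Gata4 values was not tested. Among all named genes tested, the pattern of Gata4 over the 8 libraries was most like those of the glycine transporter Slc6a9, the pancreatic phospholipase Pla2g1b and colipase Clps (Pearson's r of 0.98 each for the log2 values). After subtraction of the group means r was still 0.98 for each. These correlations describe 8 libraries that share 1 scaling and in which labelled libraries 1 and 3 set most of the range.

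**Figure D2:**
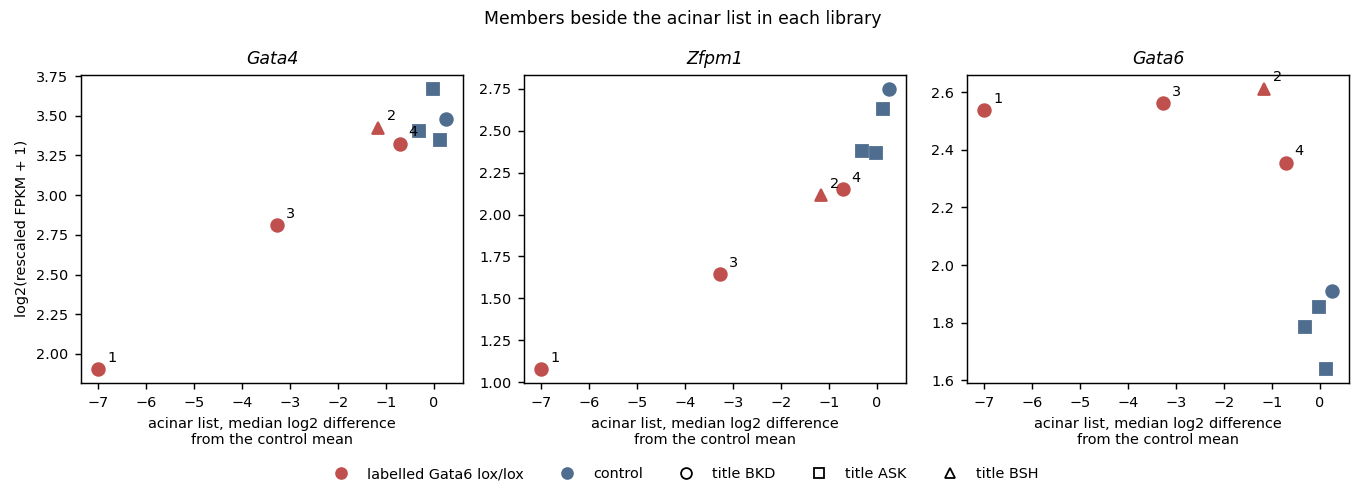
log2(rescaled FPKM + 1) of Gata4, Zfpm1 and Gata6 (y axes) against the median log2 difference of the acinar list from the control mean (x axes) in each library, with labelled libraries numbered. Gata4 and Zfpm1 are lowest where the acinar list is lowest, at -7.00 in labelled library 1 and -3.28 in library 3, and Gata6 is above the controls in all 4 labelled libraries.

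Levels of both genes depend on how the libraries are scaled, but a ratio of 2 genes in a library does not. The Gata6 to Gata4 ratio of FPKM was 1.75, 0.525, 0.814 and 0.456 in labelled libraries 1 to 4, against 0.271, 0.231, 0.223 and 0.255 in controls 1 to 4. All controls lay in a narrow band, and all labelled libraries were above it, library 1 alone with more Gata6 than Gata4. Gata6 alone already separated the groups, so the ratio is not a test independent of it. The mean log2 ratio was 1.64 higher in the labelled libraries (exact two-sided permutation p = 0.0286, the smallest possible). It was 1.25 higher without labelled library 1, with every labelled library still above every control. Without libraries 1 and 3 it was 1.00 higher, with p = 0.0667 in an exact permutation test, the smallest that 2 against 4 libraries allow. Without any 1 of the controls the exact permutation p was 0.0571. The difference was 1.67 among BKD titles and 1.15 among ASK and BSH titles, where the smallest p an exact test allows is 0.25.

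The makeup of the GATA family shifted accordingly. Gata6 gave 57.9%, 33.0%, 39.7% and 29.8% of the summed FPKM of the 6 GATA genes in labelled libraries 1 to 4, against 20.1%, 17.7%, 15.9% and 19.5% in controls 1 to 4 (difference 21.8 percentage points, exact permutation p = 0.0286). Gata4 gave 33.1%, 62.9%, 48.7% and 65.3% in labelled libraries 1 to 4, against 74.2%, 76.7%, 71.1% and 76.3% in controls 1 to 4 (difference -22.1 percentage points, exact permutation p = 0.0286). Without any 1 of the controls the exact permutation p was 0.0571 for the Gata6 share and 0.0857 for the Gata4 share. Neither share overlapped between groups, and since shares add up to a whole, the 2 are not independent. Both also rest on the values behind the ratio. The 6 GATA genes together summed to 8.30, 15.5, 12.4 and 13.8 rescaled FPKM in labelled libraries 1 to 4, against 13.7, 11.9, 16.5 and 12.6 in controls 1 to 4, and those ranges overlapped.

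**Figure D3:**
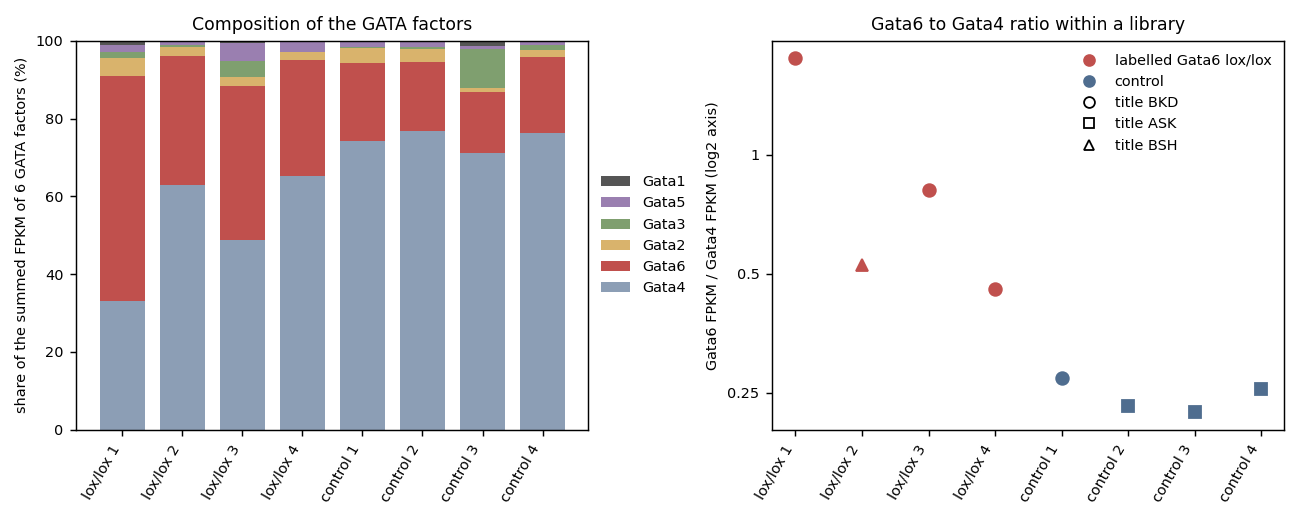
Left, share of each GATA gene in the summed FPKM of the 6 GATA genes (y axis, percent) in each library. Right, Gata6 FPKM divided by Gata4 FPKM (y axis, log2 scale) in each library, which lies between 0.456 and 1.75 in the labelled libraries and between 0.223 and 0.271 in the controls.

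Genes whose pattern was like that of Gata6 included the ciliary transport gene Ift172 and the laminin receptor subunit Itga7. Their Pearson's r over the 8 libraries was 0.97 and 0.96, and after subtraction of the group means 0.50 and 0.66. Neither is a digestive enzyme gene. Ift172 stood at 1.40, 1.56, 1.44 and 1.495 rescaled FPKM in labelled libraries 1 to 4 and at 1.07, 0.966, 1.09 and 1.01 in controls 1 to 4. Itga7 stood at 1.89, 1.39, 1.58 and 1.17 in labelled libraries 1 to 4 and at 0.692, 0.419, 0.549 and 0.643 in controls 1 to 4. Among the labelled libraries Ift172, like Gata6, was highest in library 2, whereas Itga7 was highest in library 1.

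Zfpm1 (ENSMUSG00000049577, chr8:124806039-124861146 on mm9) encodes FOG1, the cofactor best known as the partner of GATA1 in red cell and platelet formation. Its level was 1.11, 3.33, 2.12 and 3.44 rescaled FPKM in labelled libraries 1 to 4, against 5.73, 5.18, 4.15 and 4.202 in controls 1 to 4. Each labelled library was below each control, and libraries 1 and 3 were the lowest. The mean was 2.50 ± 1.10 in the labelled libraries and 4.82 ± 0.77 in the controls (SD, n = 4 each). Over all genes the log2 fold change of -0.78 (SE 0.24) did not pass in limma (adjusted p = 0.113), while the exact two-sided permutation p was 0.0286, the smallest possible. The implied fragments behind each value were whole within 0.02 in all 8 libraries, at 103 to 229 in the labelled libraries and 105 to 156 in the controls.

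The size of the Zfpm1 difference rested on labelled libraries 1 and 3. Without both it was -0.40 (adjusted p = 0.363), although libraries 2 and 4 still lay under every control. It was -1.13 among BKD titles and -0.34 among ASK and BSH titles. Without labelled library 4 it was -0.92 and passed (adjusted p = 0.0413 in limma), in a fit where 2577 of 11867 genes tested passed. In ranks, Zfpm1 stood 5874th to 10736th of the genes tested in the labelled libraries and 4046th to 4862nd in the controls.

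Across all libraries Zfpm1 kept closer to Gata4 than to Gata6. Its FPKM was 0.405, 0.342, 0.353 and 0.381 of that of Gata4 in labelled libraries 1 to 4, against 0.563, 0.566, 0.354 and 0.438 in controls 1 to 4, and these ranges overlapped. Over the 8 libraries Pearson's r was 0.90 between Zfpm1 and Gata4, and 0.88 after subtraction of the group means. Between Gata6 and Zfpm1 it was -0.77, and -0.18 after subtraction, and between Gata4 and Gata6 -0.56 and -0.028. The genes most like Zfpm1 were the peroxisomal enzyme Ehhadh, the membrane protein gene Tmem184a and Arhgdig (r of 0.99 each, and 0.98 or 0.99 after subtraction). Labelled libraries 1 and 3 set most of the range behind the correlations of Zfpm1 with Gata4 and with these genes. Among the controls, Zfpm1 was lowest in control 3 (4.15 rescaled FPKM), where Gata4 was highest (11.7).

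Zfpm2 (ENSMUSG00000022306, chr15:40486588-40936138 on mm9) encodes FOG2, the partner of GATA4 in heart and gonad. It was low throughout, at 0.548, 0.183, 0.446 and 0.284 rescaled FPKM in labelled libraries 1 to 4, against 0.177, 0.0656, 0.180 and 0.264 in controls 1 to 4. Labelled libraries 1 and 3 were the highest and libraries 2 and 4 lay in or near the range of the controls. Between 6.77 and 59.6 implied fragments stood behind a value in the labelled libraries and between 1.68 and 14.9 in the controls. With no minimum on expression the log2 fold change was 0.22 (SE 0.09, adjusted p = 0.249 in limma), where 0.139% of the 25098 genes tested passed. Without labelled libraries 1 and 3 it was 0.076 (adjusted p = 0.774). The Zfpm2 to Zfpm1 ratio was 0.492, 0.0548, 0.210 and 0.0827 in labelled libraries 1 to 4, against 0.0308, 0.0127, 0.0433 and 0.0628 in controls 1 to 4. Labelled library 2 lay within the controls. The mean log2 ratio was 2.20 higher in the labelled libraries (exact permutation p = 0.0571), and 1.07 higher without libraries 1 and 3 (exact permutation p = 0.267). The list of smooth muscle and fibroblast markers was also highest in libraries 1 and 3, as given below, and its part in the Zfpm2 values was not tested.

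Gata2 (ENSMUSG00000015053, chr6:88143885-88157024 on mm9), a factor of blood stem cells, mast cells and endothelium, was the most evenly detected of the low members. It stood at 0.380, 0.372, 0.267 and 0.278 rescaled FPKM in labelled libraries 1 to 4, against 0.527, 0.409, 0.172 and 0.239 in controls 1 to 4. The groups overlapped, and the log2 fold change with no minimum was -0.0073 (SE 0.09, adjusted p = 0.974 in limma). Its interval reached 0 in 1 of the 8 libraries, control 3. The endothelial list, 15 markers of which 11 were tested, likewise overlapped between groups, summing to 43.1 to 66.0 in the labelled libraries and 49.9 to 60.5 in the controls.

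Gata5 (ENSMUSG00000015627, chr2:180059838-180069404 on mm9), a factor of heart, gut and endothelium, stood at 0.159, 0.165, 0.569 and 0.405 rescaled FPKM in labelled libraries 1 to 4, against 0.205, 0.196, 0.111 and 0.131 in controls 1 to 4. Labelled library 3 was the highest, with 56.4 implied fragments. Labelled libraries 1 and 2 lay within the controls, and the interval was clear of 0 in labelled libraries 1 and 3 alone. The log2 fold change with no minimum was 0.18 (SE 0.10, adjusted p = 0.341 in limma). An antisense gene, Gm14318, overlaps Gata5 by 1843 bases and was listed at 0 to 0.0536 in the labelled libraries and at 0 in the controls.

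Gata3 (ENSMUSG00000015619, chr2:9778705-9811661 on mm9), which directs T helper and innate lymphoid cells, was not detected with any certainty. It was listed at 0.126, 0.0857, 0.527 and 0 rescaled FPKM in labelled libraries 1 to 4, against 0.0440, 0.0574, 1.65 and 0.168 in controls 1 to 4. Its interval reached 0 in all 8 libraries, and no value rested on more than 1.71 implied fragments. The value of 1.65 in control 3 had an upper bound of 6.09. The log2 fold change with no minimum was -0.22 (SE 0.32, adjusted p = 0.684 in limma), and 0.10 without control 3. The T cell and innate lymphoid list summed to 9.93 to 24.3 in the labelled libraries and to 5.42 to 9.84 in the controls, with 4 of its 13 markers tested.

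Gata1 (ENSMUSG00000031162, chrX:7536386-7555197 on mm9), the master factor of red cells and megakaryocytes, was listed at 0 in 5 of 8 libraries. The others were labelled libraries 1 and 3, at 0.0820 and 0.0680 rescaled FPKM, and control 3, at 0.223. Those values rested on at most 4.0 implied fragments and every interval reached 0, so no level and no difference could be read at this depth (log2 fold change -0.021, SE 0.07, adjusted p = 0.879 in limma with no minimum). Markers of its cell types were nonetheless present. The erythroid and megakaryocytic list, 13 of its 14 markers being in the tables, summed to 178 to 340.4 in the labelled libraries and 58.2 to 335 in the controls, and the mast cell and eosinophil list to 7.25 to 11.1 in the labelled libraries and 4.78 to 6.45 in the controls.

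Genes that work with the GATA family passed in no list. The lists were written from textbook knowledge and are described by counts and medians, beside a median log2 fold change of 0.10 over all genes tested. Of 18 endodermal and pancreatic factors that work with GATA4 and GATA6, 13 were tested, 0 passed and 12 were negative, with a median of -0.48. The 2 most abundant were Xbp1, a regulator of secretory capacity, at -0.70 (adjusted p = 0.363), and Bhlha15, the acinar factor MIST1, at -2.53 (adjusted p = 0.142 in limma). Ptf1a, which carries the Cre gene in all 8 mice, had a log2 fold change of -1.24 (adjusted p = 0.114). The median of the list was -0.081 without labelled libraries 1 and 3. It turned to 0.20 and 0.57 when libraries were scaled to an equal sum outside the enzymes or to the implied fragment totals, and all genes together then had medians of 0.79 and 1.12.

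The list of corepressors that FOG proteins bind held members of the NuRD complex, CtBP and Nr2f2. All 16 genes were tested, and 0 passed. Their median was 0.28 with 14 positive, and the most abundant, Mbd2 and Mbd3, were at 0.36 (adjusted p = 0.345) and -0.45 (adjusted p = 0.185 in limma). Among 9 other proteins with GATA-type zinc fingers, some of which are also in the corepressor list, 7 were tested and 0 passed, with a median of 0.12. Among 12 partners of GATA1 in the erythroid complex 6 were tested and 0 passed, with a median of 0.55. Ldb1, the bridging factor of that complex, was at 0.31 (adjusted p = 0.250) and the corepressor Cbfa2t3 at -0.88 (adjusted p = 0.0892 in limma). Among 15 cardiac and mesodermal partners 8 were tested and 0 passed, with a median of 0.31. At an unadjusted p under 0.05 there were 4 of 13, 3 of 16, 3 of 7, 4 of 6 and 3 of 8 in these 5 lists, where 30.1% of all genes tested reached it. Without labelled libraries 1 and 3 the medians of the last 4 lists were 0.045, -0.028, 0.11 and 0.19.

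Markers of cell types outside the acinar lineage had these levels, where 0.414% of all genes tested passed and 0.22% passed as higher. The adipocyte list summed to 453 to 623 rescaled FPKM in the labelled libraries and 106 to 263 in the controls, and 4 of its 13 tested members rose (Plin4, Cidec, Cd36 and Pck1). The smooth muscle and fibroblast list summed to 983, 406, 1391 and 461 in labelled libraries 1 to 4, and no control exceeded 346 (lowest 244). Of 13 tested markers 0 passed. The macrophage list summed to 863, 271, 762 and 223 in labelled libraries 1 to 4, with the controls at 109 to 169, and 0 of 12 passed. The mesothelial list summed to 126 to 231 in the labelled libraries and 95.9 to 143 in the controls, with 0 of 8 passing. Smooth muscle and peritoneal macrophages are known to express GATA6, but the lists mix smooth muscle with fibroblast markers and hold macrophage markers in general. Log2 fold changes of tested markers ran from 0.06 to 1.68 for smooth muscle and fibroblasts and from -0.18 to 1.91 for macrophages. No marker in these 4 lists was at 0 in all libraries, and their part in the Gata6 values was not tested. Smooth muscle and macrophage sums were highest in labelled libraries 1 and 3, and the Gata6 intervals of labelled libraries 1, 2 and 3 overlapped.

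The direction of Gata4 and Zfpm1 depended on the scaling of the libraries. Such a scaling multiplies all genes of a library by the same factor. A position relative to the median of all genes could therefore hardly change. Scaled to an equal sum outside the enzymes, Gata4 was at 0.18 and Zfpm1 at -0.11, and scaled to implied fragment totals at 0.61 and 0.26. The median of all genes was then 0.79 and 1.12, against 0.10 as reported. Relative to that median Gata4 was at -0.71 as reported and at -0.61 and -0.52 under these scalings. Zfpm1 was at -0.88 as reported and at -0.89 and -0.86. Gata6 was at 0.62 as reported and at 0.63 and 0.68.

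**Figure D4:**
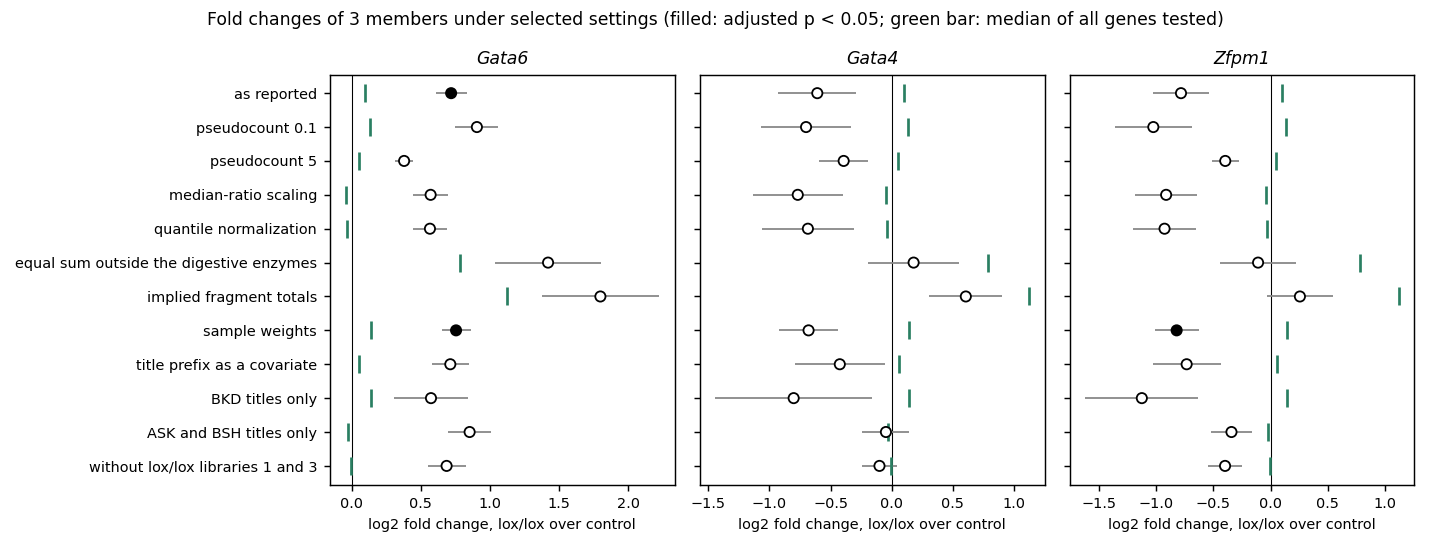
log2 fold change (x axes) of Gata6, Gata4 and Zfpm1 under the reported fit and selected other settings (rows), with standard errors as bars, filled circles where the adjusted p was under 0.05 and a green bar at the median of all genes tested. Gata6 lies to the right of the median of all genes in each row and Zfpm1 to its left, while Gata4 meets it among ASK and BSH titles.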

How the data were processed

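The authors deposited 1 table of gene FPKM with interval bounds per sample. The libraries were made with 8 cycles of PCR from RNA with integrity numbers of 7.1 to 8.8, per the labels' protocols. Cufflinks 2.0.1, TopHat2 2.0.4, Bowtie and CASAVA 1.8, with mm9 and NCBIM37, are named in the submitters' processing notes. Read strand, gene models and FPKM scaling were not given in the sources used here. FPKM was divided by 100000 in every sample. Entries of 1 gene ID were summed, and 39 genes without an estimate in some sample were left out. Implied fragments are the squared ratio of FPKM to its SD, taken as the half-width over 2. They cover counting and assignment error only, and no count test was run. The tests used limma 3.58.1 in R 4.3.3 with an intensity trend, two-sided, at a threshold of 0.05, and were tried on simulated data. Members under the minimum were fitted with no minimum. In all 12 exact permutation tests were run (8 members, 2 ratios and 2 shares). Their p-values were not adjusted for the number of tests. Lists are described by counts. Named genes were the members, genes overlapping them, the 3 most alike in pattern (1 of those for Gata6 is not reported here), and from a pathway list the passing members or the 2 most abundant. Ptf1a was added for its Cre, and Nr2f2 as a listed gene outside NuRD and CtBP. Members and lists were chosen with earlier results of these data known. Transcripts of GENCODE M21 (GRCm38) were used through gene names only.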

Additional observations from a re-analysis of the deposited data

Results flagged for a closer look

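In 36 groups of 4 values, 5 had 1 value far from the other 3 by Dixon's criterion, where chance gives about 1 in 20. Of these, 4 belong to control 3. Gata1 was 0.223 rescaled FPKM there and 0 in the other controls, which made its share of the GATA factors 1.35% there. Gata3 was 1.65 there and at most 0.168 in the other controls, a share of 9.999%. Both values had intervals that reached 0 and fewer than 1 implied fragment. In labelled library 1 the share of Gata2 was 4.58%, against 2.01% to 2.40% in the other labelled libraries.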

How the results depend on the processing

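Gata6 was positive in all 21 alternatives that tested it. Its adjusted p stayed under 0.05 in 2, with sample weights (0.0161, where 3780 of 11832 genes were called) and without labelled library 4 (2577 of 11867 genes called). The call was lost at a log2 fold change of 0.90 with a pseudocount of 0.1, 0.38 with 5, 0.72 with no minimum or without trend, 0.57 with median-ratio scaling, quantile normalization or BKD titles alone, 1.42 with equal sums, 1.798 with implied totals, 0.71 with the prefix, 0.85 among ASK and BSH titles, and 0.69 when labelled libraries 1 and 3 were dropped. Since its groups did not overlap, only a scaling or covariate could have turned its sign. Leaving out 1 library gave 0.67 to 0.77 for Gata6, -0.79 to -0.29 for Gata4, -0.92 to -0.56 for Zfpm1, -0.045 to 0.052 for Gata1, -0.068 to 0.059 for Gata2 and -0.35 to 0.10 for Gata3. Zfpm1 passed with sample weights (-0.82, adjusted p = 0.0196) and without labelled library 4, the same 2 fits. Signs turned under equal sums for Gata4 (0.18), Gata1 (0.035) and Gata2 (0.26), and under implied totals for Gata4 (0.61), Zfpm1 (0.26), Gata1 (0.086), Gata2 (0.40) and Gata3 (0.10). They also turned for Gata2 with a pseudocount of 0.1 (0.022), with sample weights (0.021) and among ASK and BSH titles (0.11), and among BKD titles for Gata1 (0.070) and Gata3 (0.20). The causes were not tested. Gata5 and Zfpm2 stayed positive without passing.

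Leaving out 1 library gave differences of 1.25 to 1.89 in the log2 Gata6 to Gata4 ratio, 15.9 to 25.2 points in the Gata6 share, -26.3 to -15.6 points in the Gata4 share and 1.62 to 2.67 in the log2 Zfpm2 to Zfpm1 ratio. In that order BKD titles alone gave 1.67, 22.3, -25.2 and 2.73, ASK and BSH titles 1.15, 15.4, -11.7 and 0.75, and leaving out labelled libraries 1 and 3 gave 1.00, 13.1, -10.5 and 1.07. These groups are too small for an exact p under 0.05. With upper interval bounds the Gata4 share lost its call (-18.2 points, exact permutation p = 0.0857) and the Zfpm2 to Zfpm1 ratio gained one (1.81, exact permutation p = 0.0286). For the ratio and shares, leaving out libraries 1 and 3 was chosen after seeing the data, as was every alternative of the Zfpm2 to Zfpm1 ratio. The number of genes called, 49, ranged from 4 among BKD titles to 3780 with sample weights, and was 2577 without labelled library 4. No paired analysis was possible because the labels number no replicates. Depth limits Gata1 and Gata3 in all libraries and Gata5 in 6 of 8, where intervals reached 0.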
